A study of Caenorhabditis elegans with 2 samples.

Results

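The genes described here belong to 3 detoxification families of Caenorhabditis elegans: the cytochrome P450 genes (cyp), the UDP-glucuronosyltransferase genes (ugt) and the glutathione S-transferase genes (gst). They were taken from a list of 1005 binding regions (peaks) of the transcription factor ATFS-1. A peak was kept where the gene name that the authors wrote beside it began with cyp-, ugt- or gst-. The gene gst-42, an enzyme of tyrosine breakdown, was left out. This gave 11 peaks for 11 genes: 4 cyp, 6 ugt and 1 gst.

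The peaks come from chromatin immunoprecipitation sequencing (ChIP-seq), in which protein is cross-linked to DNA, the chromatin is sheared and an antibody pulls down the fragments bound by 1 protein. Whole wild-type worms were fed from the egg on spg-7(RNAi) food, which silences the mitochondrial protease gene spg-7, and were collected as L4 larvae after about 48 h. A library precipitated with an antibody to ATFS-1 was compared with a library of the same genotype, food and stage that received no antibody. Both groups therefore carry the mitochondrial stress, and neither shows what happens in unstressed worms. Filtered depth was similar in both, 10992796 tags with antibody and 10583049 without. Each group has 1 library, so no value below has a replicate check and no test between libraries was possible. A lysate of whole worms mixes all tissues, and the tissue in which a peak arose cannot be told from it.

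ATFS-1 is a bZIP transcription factor that is imported into healthy mitochondria and degraded there, and that enters the nucleus when import is impaired. It is best known for inducing mitochondrial chaperones and proteases, and it also induces genes of xenobiotic defence. That defence works in phases. Cytochrome P450 enzymes oxidise fat-soluble compounds, UDP-glucuronosyltransferases attach a sugar and glutathione transferases attach glutathione to make them soluble, and ABC transporters pump the products out of the cell. In worms many genes of the 3 families lie in tandem clusters and are strongly expressed in the intestine.

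Of the 3 families, the ugt genes had the highest share named at a peak and the gst genes the lowest. The RefSeq gene table of assembly WBcel235 holds 67 protein-coding ugt genes, and 6 of them (8.96%) were named at a peak. Of 74 cyp genes 4 were named (5.41%), and of 43 gst genes, with gst-42 not counted, 1 was named (2.33%). Together this was 11 of 184 genes (5.98%). The background share, over all 19971 protein-coding nuclear genes, was 4.53%. Of the 1033 names in the list 930 matched the gene table, against all 11 of the members. Names without a match could not be counted, so the background may be too low beside the family shares.

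These shares rest on few genes. Exact binomial 95% intervals ran from 3.36% to 18.5% for ugt, from 1.49% to 13.3% for cyp and from 0.0589% to 12.3% for gst. The intervals of the 3 families overlap each other, and all of them include 4.53%. The cyp share was close to the background. The families' shares were not tested against each other. Counted at peaks at or above the list's median fold alone, 2 cyp, 3 ugt and 0 gst genes were left, where the background was 2.33%. At or above the median caller score these were 3, 3 and 0 (background 2.37%), and at a false discovery rate up to 5% they were 0, 1 and 0 (background 0.145%).

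**Figure D1:**
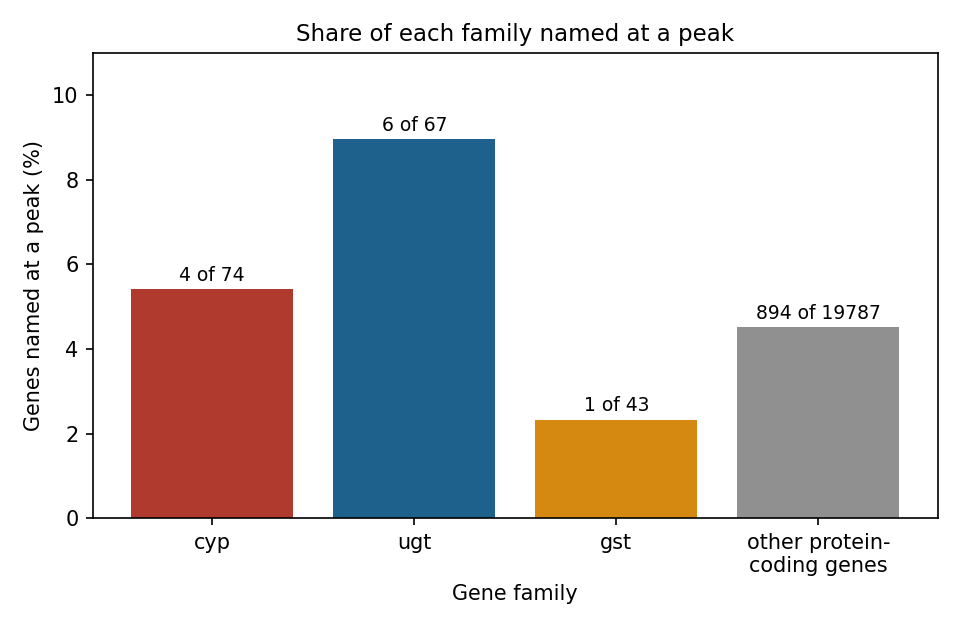
Percentage of protein-coding genes named at a peak (vertical axis) in the cyp, ugt and gst families and among the remaining protein-coding genes (horizontal axis). Labels give the genes named of all genes in each group. The ugt bar stands highest at 8.96% and the gst bar lowest at 2.33%, around 4.52% for the other genes.

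The strength of a peak is given here by the authors' own peak caller as fold enrichment, the ratio of antibody signal to the level expected from the control library, and by the number of antibody tags (mapped read positions) in the region. The list holds no control tags per peak, so a fold cannot be given an error. Intervals on tags below are exact 95% Poisson intervals and cover counting error only. Coordinates are those of the deposited list, whose genome build is not named, and whether a peak lies in a promoter, exon or intron was not analysed here. Ranks run from 1, the highest fold of the 1005 peaks. The median peak of the whole list had 3.26-fold enrichment, 325 tags and a length of 1555 bp.

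The member with the highest fold was cyp-33C8, a cytochrome P450 gene of the CYP33C group (locus name R08F11.3). Its peak on chromosome V, from 3800347 to 3804612, held 1196 tags (interval 1129 to 1266) at 9.44-fold, rank 16 of the list. It was also broad, at 4266 bp. Its summit, the point of highest signal, lay 3141 bp from the start of the region, at 73.6% of its length. The summits of the other 10 peaks lay between 25.2% and 50.03% of their lengths. Its false discovery rate, as estimated by the caller from swapped libraries, was 10.81%, and only 2 peaks of the list had a higher one. All 35 peaks with a higher caller score had a lower rate.

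The other 3 cyp peaks were weaker. The peak at cyp-33D3 (Y17D7A.4, chromosome V, 18838469 to 18839735) held 266 tags (235 to 300) at 3.95-fold, rank 274. It was the only one of the 11 that carried a further name, nhr-65, a nuclear hormone receptor gene that follows cyp-33D3 in gene order. The list does not say which of the 2 genes the peak belongs to.

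Both remaining cyp peaks lay on chromosome X at genes of the CYP14A group. The peak at cyp-14A1 (K09A11.2, 13266856 to 13267993) held 214 tags (186 to 245) at 3.10-fold, rank 558. The peak at cyp-14A4 (R04D3.1, 13283087 to 13284998) held 364 tags (328 to 403) at 2.51-fold, rank 888. The cyp-14A4 peak thus had more tags than the cyp-14A1 peak, with intervals that do not overlap, but a lower fold and a greater length of 1912 bp. Tag density was nearly equal, 188 tags per kb at cyp-14A1 and 190 at cyp-14A4.

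Among the ugt genes, ugt-50 (T07C5.1) had the peak with the most tags, the highest caller score and the lowest false discovery rate of the 11. On chromosome X, from 12689853 to 12693269, it held 1318 tags (1248 to 1391) at 8.97-fold, rank 23 by fold and rank 9 by the caller's score. Its false discovery rate was 0, and it was the only member at 5% or less. Of all 1005 peaks, 3.18% were at or under that rate. At 386 tags per kb it ranked 12 by tag density, the highest of the members.

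A second strong ugt peak was at ugt-19 (K08B4.3, chromosome IV, 6079330 to 6080854), with 549 tags (504 to 597) at 7.54-fold, rank 38. It was compact, at 1525 bp, slightly shorter than the median peak, and dense, at 360 tags per kb. The peak of its neighbour ugt-20 (K08B4.4) began 2659 bp further on, from 6083514 to 6084571. The ugt-20 peak was the weakest of the 11 by tags, 183 (157 to 212), and stood at 2.59-fold, rank 834. ugt-19 and ugt-20 are consecutive protein-coding genes in the RefSeq order, so 2 adjacent copies were each named, with folds of 7.54 and 2.59.

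The other ugt peaks were intermediate or weak. That at ugt-2 (AC3.8, chromosome V, 10398777 to 10400354) held 392 tags (354 to 433) at 4.72-fold, rank 164. That at ugt-61 (F39G3.1, chromosome V, 4741836 to 4742876) held 189 tags (163 to 218) at 3.10-fold, rank 558. That at ugt-62 (M88.1, chromosome III, 4540052 to 4541331) held 244 tags (214 to 277) at 2.60-fold, rank 830. Only ugt-2 of these 3 was above the median fold and the median tag count of the list.

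The single glutathione transferase was gst-1 (R107.7), which encodes a pi-class enzyme. Its peak on chromosome III, from 9058769 to 9060268, held 285 tags (253 to 320) at 2.85-fold, rank 697. Fold, tags and density (190 tags per kb) were all below the medians of the list.

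**Figure D2:**
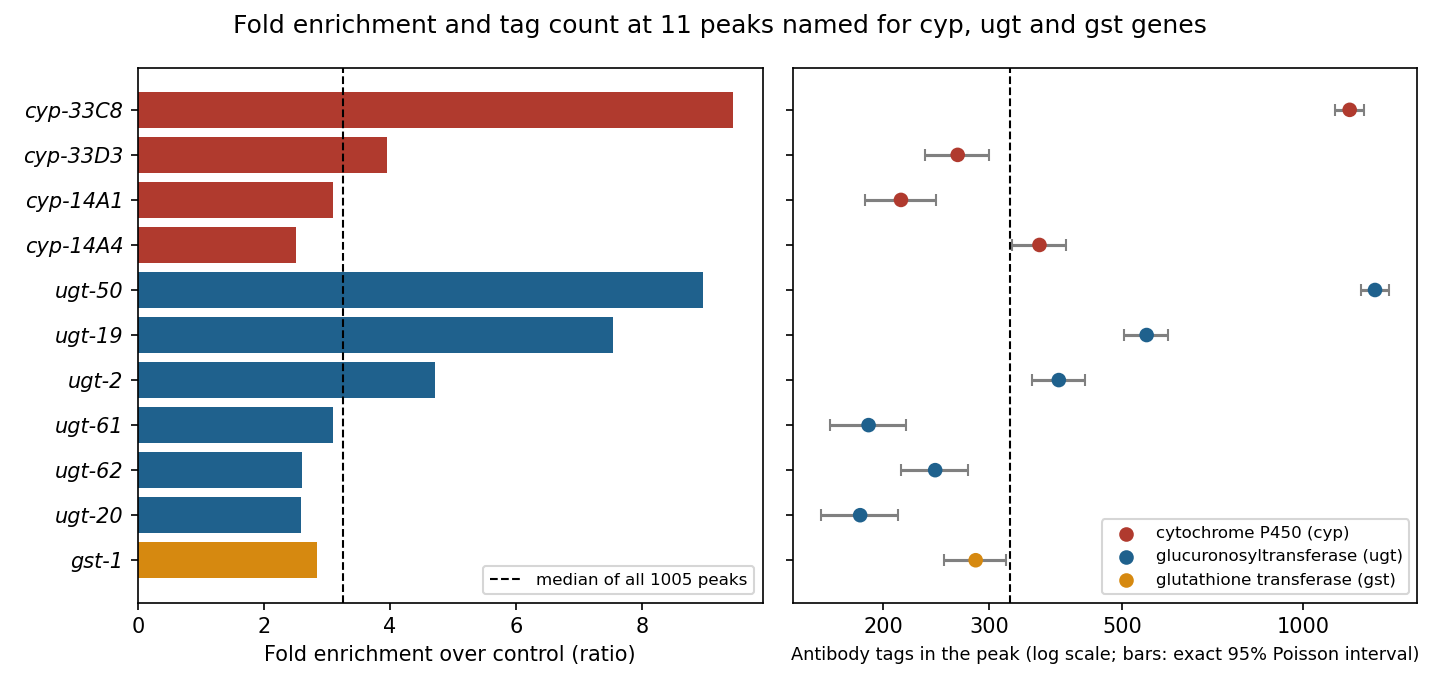
Fold enrichment (left, ratio on a linear axis) and antibody tags (right, log axis, with exact 95% Poisson intervals) of the 11 peaks, coloured by family. Dashed lines mark the medians of all 1005 peaks, 3.26-fold and 325 tags. By fold cyp-33C8, ugt-50 and ugt-19 (9.44, 8.97 and 7.54) lie above the next member at 4.72, and by tags cyp-33C8 and ugt-50 (1196 and 1318) lie above the next at 549.

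Taken by family, strength varied more within cyp and ugt than between them. Folds ran from 2.51 to 9.44 for cyp (median 3.53) and from 2.59 to 8.97 for ugt (median 3.91), and the 1 gst peak lay inside both ranges. The median of the 11 was 3.10. At 5-fold or more stood 3 of the 11, cyp-33C8, ugt-50 and ugt-19, where 13.6% of all peaks reach that level. At or above the median fold of the list stood 5 of the 11, against 50.1% of all peaks. By fold the members ranked from 16 to 888 of 1005, with 6 of the 11 below the median of the list. Median tag density was 200 per kb for cyp and 220 for ugt, beside 204 for all peaks.

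**Figure D3:**
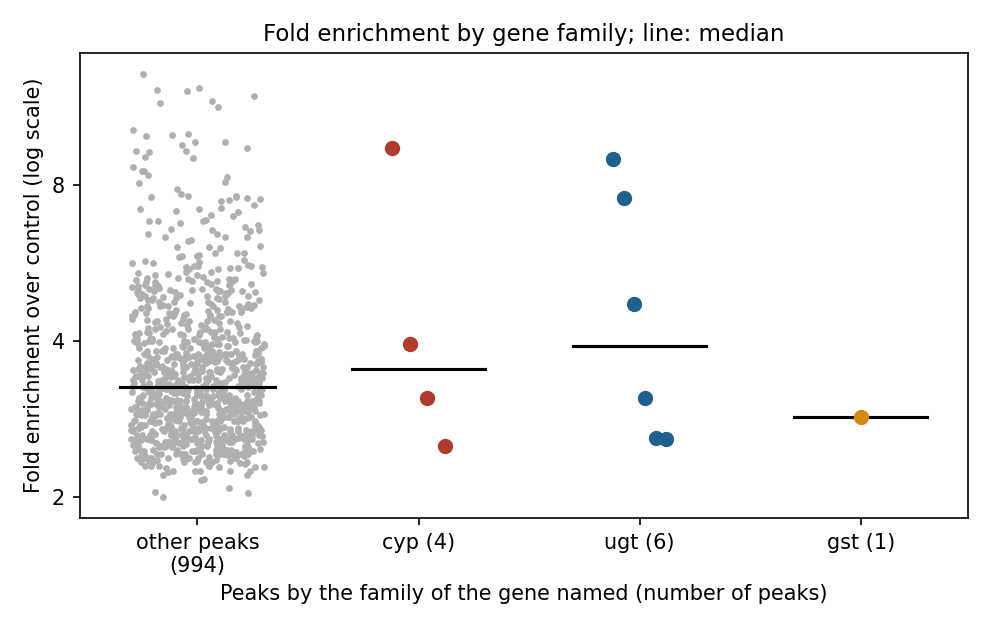
Fold enrichment (vertical axis, log scale) of the 994 other peaks and of the cyp, ugt and gst peaks. Each point is a peak and each horizontal line the median of its group. Every family's points lie within the cloud of other peaks, and cyp and ugt each span from below 3-fold to about the same upper values, 9.44 and 8.97.

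The caller's false discovery rate gave a different order from the fold. Besides ugt-50 at 0, the lowest rates were at ugt-2 (5.91%) and ugt-19 (6.67%). The 4 cyp peaks had the 4 highest rates of the members, from 7.87% to 10.81%, beside a median of 7.55% over the list. The ugt peaks other than ugt-50 ran from 5.91% to 7.63%, and gst-1 stood at 7.54%. Nor did the rate fall steadily as the caller's score rose. The cyp-33C8 peak, rank 36 by score, had 10.81%, while the ugt-20 peak, rank 979 by score, had 7.39%. The rates are therefore not read here as an order of reliability among the members, nor as a trait of the cyp family.

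Within the cytochrome P450 family the named genes fell into 2 of 15 numbered groups. Of 5 CYP14 genes 2 were named, and of 18 CYP33 genes 2. In the other 13 groups none of 51 genes was named, where the background share is 4.53%. Among these were all 13 CYP13 genes, all 10 CYP35 genes, which are widely used as markers of xenobiotic exposure, and all 8 CYP34 genes. Most of these groups hold few genes, and nothing is read from a group with none named.

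Of 12 well-known members of the families, listed for their induction by stress or xenobiotics, 1 was named at a peak (8.33%, beside 4.53% of all protein-coding genes). It was ugt-61. With so few genes nothing is read from this share. The 11 not named were gst-4, the standard reporter of the oxidative stress factor SKN-1, gst-7, gst-10, cyp-13A7, cyp-14A3, cyp-29A2, cyp-34A9, cyp-35A2, cyp-35B1, ugt-13 and ugt-16. A gene without a name in the list may still lie near a peak that carries another name or none.

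The genes of these families are unevenly spread over the genome. Chromosome V holds 92 of the 184 (50%), against 25% of all protein-coding genes, and it is the chromosome with the lowest background share, 2.88% of its genes being named at a peak. On V 4 of the 92 family genes were named (4.35%). On chromosome X 3 of 13 were named, where the background is 5.13%, on III 2 of 10 (background 6.74%) and on IV 2 of 23 (4.45%). None of 38 was named on chromosome II (3.89%), which holds 25 of the 43 gst genes, and none of 8 on I (5.67%).

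When the background was weighted by the chromosomes on which the 184 genes lie, it came to 3.78%. It was 3.76% for cyp, 3.69% for ugt and 3.94% for gst. The observed shares of 5.41% and 8.96% were above it and that of gst, 2.33%, was below it, as with the unweighted background. The lowest limit of the ugt interval, 3.36%, still lay under the weighted background. Names without a match in the gene table are missing from the weighted background too.

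**Figure D4:**
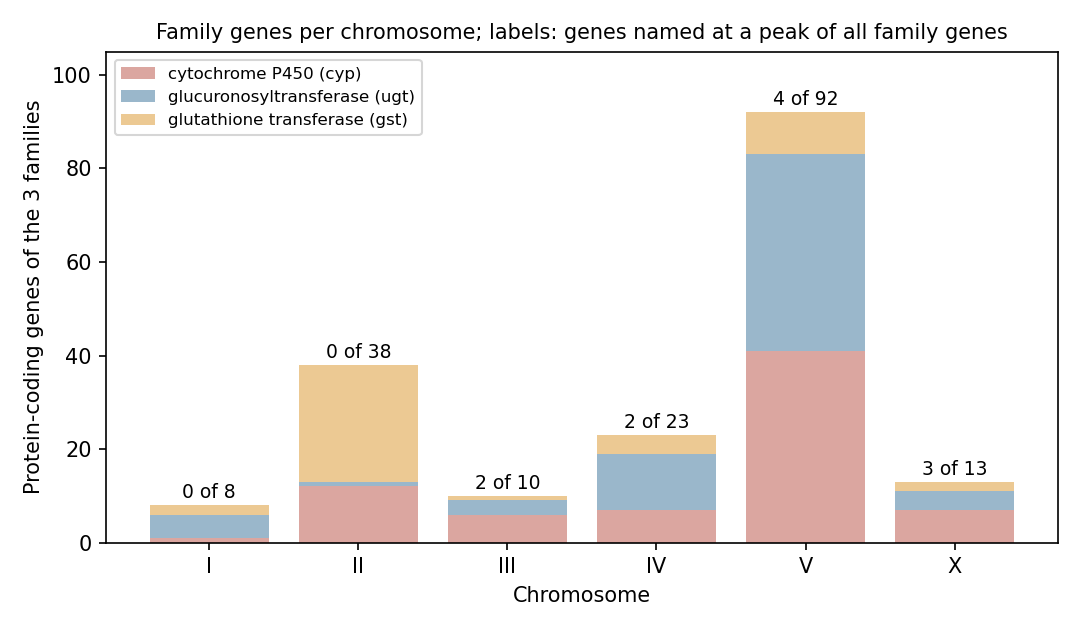
Number of protein-coding cyp, ugt and gst genes (vertical axis) on each nuclear chromosome (horizontal axis). Labels give how many of the genes of the 3 families were named at a peak. Chromosome V holds 92 of the 184 genes and 4 of the 11 named ones, while II holds 38 genes and none.

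Many of these genes stand in tandem arrays, and 4 of the 11 named ones had a gene of their own family directly beside them. Of 38 cyp genes with a cyp gene directly beside them in the RefSeq order 1 was named, cyp-14A1, and of 36 without one 3 were named. For ugt the counts were 3 of 31 with such a neighbour (ugt-2, ugt-19 and ugt-20) and 3 of 36 without. For gst they were 0 of 24 and 1 of 19. Over the 3 families this was 4 of 93 (4.30%) directly beside a relative and 7 of 91 (7.69%) not directly beside one. The share of all protein-coding genes was 4.53%. The difference of 3 genes was not tested. Genes not directly beside a relative can still lie near one, as cyp-14A4 does. Copies in an array can be alike in sequence, and the sources used here do not say how reads that fit several copies were treated, so which copy a tag came from is uncertain for these genes.

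Neighbours in arrays were not named together except at ugt-19 and ugt-20. ugt-1, which directly precedes ugt-2, was not named. On chromosome X cyp-14A1 is followed by cyp-14A2 and cyp-14A3, neither of them named, and then by phf-33 and cyp-14A4. A peak with no gene name (13264166 to 13265266, 216 tags, 3.82-fold) lay 1589 bp before the cyp-14A1 peak and was the stronger of the pair by fold.

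Some members lay close to another peak. For 5 of the 11 the nearest other peak was within 5000 bp, and this held for 18.3% of all peaks. The 5 include ugt-19 and ugt-20, each of which was the other's nearest peak. The cyp-33C8 peak lay 534 bp from a peak named for srt-30, a chemoreceptor-class gene that precedes it, with 218 tags at 3.32-fold. The gst-1 peak lay 2004 bp from a stronger peak named for cls-2, a microtubule regulator gene directly before gst-1, with 729 tags at 5.13-fold. The remaining 3 of the 5 were ugt-19, ugt-20 and cyp-14A1, described above. For the weak peaks at gst-1, ugt-20 and cyp-14A1 the close neighbour was therefore the stronger one by fold. Whether signal at the neighbour contributes to these peaks was not tested.

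The wider detoxification system was looked at through 78 further genes, of which 76 were in the gene table. Of these 10 (13.2%) were named at a peak, beside 4.53% of all protein-coding genes. The groups within it hold few genes, and nothing is read from their counts. The list was drawn up with earlier results of these data known, so its share is only described. Among 3 partners of P450 enzymes, emb-8, the NADPH-P450 reductase that passes electrons to them, had a peak of 4.91-fold and 821 tags (chromosome III, 5198111 to 5201291). Its fold was above those of 3 of the 4 cyp peaks. Among 14 genes of glutathione synthesis and use the glutaredoxin gene glrx-10 was named (4.85-fold, 819 tags). This was 7.14% of the group, beside 4.53% of all protein-coding genes.

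Of 25 efflux transporter genes 2 were named (8%, beside 4.53% of all protein-coding genes). They were the P-glycoprotein gene pgp-9 (4.85-fold, 437 tags) and mrp-5, a haem exporter (3.02-fold, 261 tags). None was named of 15 dehydrogenase and reductase genes, nor of 4 genes for a sulfotransferase, epoxide hydrolases and the enzyme making UDP-glucuronic acid. At a background of 4.53%, nothing is read from groups this small. The alcohol dehydrogenase name sodh-1, however, stood at a peak of 2.93-fold and 496 tags. That symbol is not in the gene table, so it was not counted.

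Of 15 regulators of detoxification 6 were named (40%, beside 4.53% of all protein-coding genes). This share was not tested against the other groups. The regulators were listed with earlier results of these data known, so nothing is read from it. Named were skn-1, the Nrf-type activator of gst genes (6.69-fold, 811 tags, at a false discovery rate of 10.42%), its repressor wdr-23 (3.05-fold, 195 tags) and nhr-48, a nuclear receptor gene (4.96-fold, 407 tags). The others were the acetyltransferase gene cbp-1 (4.57-fold, 398 tags), the hypoxia factor gene hif-1 (2.68-fold, 292 tags) and daf-16, the FOXO factor gene (2.29-fold, 260 tags). Only skn-1 of these had a fold of 5 or more, and it stood below cyp-33C8, ugt-50 and ugt-19.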

How the data were processed

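Per the file headers, the authors called peaks with MACS 1.4.2 on 1 antibody library against 1 control, at a p cutoff of 1e-05 and with at most 1 tag per position. BWA 0.7.5, Picard and MACS 1.4 appear in the submitters' processing notes. After duplicates were removed 10992796 antibody tags (40.0% removed) and 10583049 control tags (20.3% removed) were left, per the file headers. The 2 libraries came from different sequencing project folders, so folder and antibody cannot be told apart. No source used here names the genome build or how gene names were assigned.

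The deposited values per peak are a tag count, a fold enrichment (a ratio), a score, and a percent false discovery rate. The deposited score had lost its heading and was read from its place as log10 of the p-value, sign turned, times 10.

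From these, shares, medians, ranks and gaps were computed (Python 3.11.15, pandas 2.3.3, scipy 1.17.1), with no test. Parsing was tested on simulated data. Names were matched to RefSeq WBcel235 by symbol or locus name and chromosome, 930 of 1033 in all and 11 of 11 members. The table was used only for names and gene order. In that order all 11 members lay between the genes of the flanking peaks. Every member, each name sharing its peak and each named gene of the wider list is reported. Members and lists were chosen with earlier results of these data known. The array counts were chosen after their values were seen. Planned promoter motifs were not analysed here, since no promoter sequence was used.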

Additional observations from a re-analysis of the deposited data

How the results depend on the processing

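No paired analysis was possible because the antibody and the control group hold a single library apiece, and none could be left out. Of 36 alternative values 25 stayed within 1.5 times the reported one, and 11 did not. Some of the 25 equal the reported value by construction, as set out below, so the tally does not measure stability. Restricted to the upper part of the list by fold (the median or more), the shares were 2.70% for cyp, 4.48% for ugt and 0% for gst (all genes 2.33%). Restricted in the same way by score, ugt fell to 4.48% and gst to 0% (all genes 2.37%), cyp stood at 4.05%, and the median fold of the ugt peaks left was 7.54. With false discovery rates up to 5%, cyp and gst stood at 0% and ugt at 1.49% (all genes 0.145%). These settings keep fewer peaks by construction. The wider list, under settings chosen after seeing the data, went from 10 genes to 6 at the median fold and to 0 at that rate. Locus names, single-name peaks, gene order, pseudogenes, mean log2 fold and tags per kb moved no value by more than 1.5 times. Several of these settings could not change a value. No family gene stood in the list under a locus name, and every member lay between the genes of the flanking peaks. Among the members, single-name peaks left out only cyp-33D3. The mean over a single gst peak is that peak's own fold. The tag density of cyp, 0.981 times the list median, lay below it although the fold lay above, and that of ugt was 1.08 times. No gst peak passed the median score, so its fold has no value there. The members held 183 to 1318 tags each, and depth was not varied.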

Other observations

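The 2 broadest peaks among the members, at cyp-33C8 (4266 bp) and ugt-50 (3417 bp), were also those with the most tags, 1196 and 1318, and the highest folds, 9.44 and 8.97. Their false discovery rates lay at opposite ends of the list, 10.81% and 0. No peak of the list had a rate under that of ugt-50, and 1001 had a rate under that of cyp-33C8. In RefSeq gene order ugt-50 is followed by nhr-26, and cyp-33D3 by nhr-65, both nuclear hormone receptor genes. Of these, only nhr-65 was named at a peak. How often such genes lie beside other genes was not counted, and nothing is read from this.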
